A study of Mus musculus with 8 samples.

Results

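Nppa and Nppb, the natriuretic peptide genes of heart muscle, are 2 of the 10225 genes that the array annotation names by a single symbol, and 3 of the 28704 spots read them. Members were all probes whose only symbol was Nppa or Nppb: 1 probe of Nppa (spot 7514) and 2 probes of Nppb (spots 4698 and 17782). All 3 had a value on all 8 arrays, so that the filter on missing values removed no member. The arrays compared hearts of neonatal C57BL mice that were wildtype with hearts of neonatal C57BL mice null for connexin43, the gap junction protein that Gja1 encodes. Each array carried Cy3-labelled cDNA of 1 pool of 3 hearts, with 4 pools per genotype, beside Cy5-labelled cDNA of a reference made once from adult tissues of both sexes: stomach, spleen, gonads, lung, liver, kidney, heart, brain and aorta. The labels count 1 tissue more than the entries they name, with ovary and testicles in 1 entry, so that the full composition is not certain. The labels name neither the age in days nor how the null allele was made. Each value is the log2 of the heart signal over the reference signal, after the median of its array was set to 0, and a value of 1 is a ratio 2 times that of the median spot. Because the reference holds adult heart, a ratio sets the neonatal heart against a mixture that already contains natriuretic peptide transcripts, and the ratios of different probes are not levels that can be ranked against each other. The labels call the replicates pools of hearts, so that p-values measure the spread between pools and not between animals.

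Nppa encodes the precursor of atrial natriuretic peptide, and Nppb the precursor of B-type natriuretic peptide. Heart muscle cells secrete both hormones when the chamber wall is stretched. In the circulation they bind the guanylyl cyclase receptor encoded by Npr1, raise cyclic GMP in the target cell, relax vessels and promote the loss of salt and water, while the receptor encoded by Npr3 takes them up and clears them. Both genes are active in atria and in the inner, trabeculated layer of the ventricles before birth, and ventricular Nppa declines after birth while the atria remain its main source. Both are textbook markers of a loaded ventricle, which asks of these arrays whether the load markers differ between hearts with and without connexin43.

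The 2 genes lie next to each other on chromosome 4 with no other gene between them in the GRCm38.p6 gene table. Their promoters are shown because the transcription factors measured below are known to act there. Whether the sequences bear on the values of either gene was not tested. The 250 bases before the start of each gene are taken from RefSeq (GRCm38.p6), both on the plus strand, at chr4:148000472-148000721 for Nppa and chr4:147985650-147985899 for Nppb, and both members matched the promoter table. Capitals mark matches, on either strand, to GATAA (bound by Gata factors), AAGTG (Nkx factors), GGTGTGA (T-box factors), CATTCC (Tead factors) and TATAAA (the TATA box).
Nppa: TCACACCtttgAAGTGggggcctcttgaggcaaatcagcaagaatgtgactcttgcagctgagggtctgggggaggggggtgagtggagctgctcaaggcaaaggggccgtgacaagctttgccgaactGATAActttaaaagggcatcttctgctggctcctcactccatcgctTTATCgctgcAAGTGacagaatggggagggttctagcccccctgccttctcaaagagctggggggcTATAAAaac
Nppb: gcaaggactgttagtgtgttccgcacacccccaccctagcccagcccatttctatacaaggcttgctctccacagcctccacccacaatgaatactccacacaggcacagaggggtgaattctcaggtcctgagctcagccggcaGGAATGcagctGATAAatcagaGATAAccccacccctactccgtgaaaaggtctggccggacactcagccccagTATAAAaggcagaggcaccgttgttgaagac

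Each promoter held 2 matches to GATAA, which begin 121 and 75 bases before the start in Nppa and 94 and 83 bases before it in Nppb. Nppa also had 2 matches to AAGTG, 239 and 65 bases before its start, and 1 to GGTGTGA at the far end of the window, none of which occurred in the Nppb window. Nppb had 1 match to CATTCC, 105 bases before its start, which the Nppa window lacked. Among the same 250 bases of all 32851 promoters in the table, GATAA occurred in 22.6%, AAGTG in 40.7%, GGTGTGA in 3.33%, CATTCC in 12.6% and TATAAA in 12.4%. No match overlapped another, and TATAAA began 9 bases before the Nppa start and 31 before the Nppb start. These matches describe letters in the window, not bound sites.

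The first question was whether Nppa differed between genotypes. The 4 wildtype arrays read 1.45, 0.10, 1.41 and 1.16 (replicates 1 to 4), and the 4 null arrays 0.63, 1.57, 1.53 and 1.73. Null replicates 2 to 4 lay above every wildtype value, null replicate 1 lay below 3 of the wildtype values, and the lowest value of all was wildtype replicate 2, so that the groups overlapped. Null hearts averaged 1.36 ± 0.49 and wildtype hearts 1.03 ± 0.63 (SD, n = 4 pools each). The difference of 0.33 (SE 0.31) corresponds to a 1.26-fold higher mean in null hearts, with a 95% interval from 0.787-fold to 2.02-fold. It did not pass in limma, with an adjusted p of 0.773 over 11804 features, and the exact two-sided permutation test gave p = 0.457. The spread between pools was larger than the difference between genotypes, and an interval that reaches from a modest fall to a doubling does not show that the genotypes were alike.

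The size of the Nppa difference rested on wildtype replicate 2. Without that array it was 0.03 (adjusted p = 0.980 in limma), without null replicate 1 it was 0.58 (adjusted p = 0.633), and without null replicate 4 it was 0.21 (adjusted p = 0.884). Leaving out wildtype replicate 1, which had the fewest values and the lowest rank correlation with the other arrays, gave 0.47. With limma's array weights, which gave wildtype replicate 2 the largest weight among wildtype arrays (1.65), the difference was 0.78 (adjusted p = 0.370). Without centring of the arrays it was 0.18, where the median difference of all features was -0.18 in place of -0.04. On wildtype replicate 2 the deposited Nppa value itself was close to 0, at 0.0016. The median of the printed block of spots around Nppa on that array was 0.03 over 361 spots with a value, against -0.09 to 0.12 for the same block on the other 7 arrays. The probe stood at percentile 59.8 of its block on wildtype replicate 2, at percentile 92.6 on null replicate 1 and at percentile 96.8 or above on the other 6 arrays.

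Nppb was high against the reference in every pool and differed little between genotypes. Averaged over its 2 probes it read 1.59, 1.79, 1.70 and 1.54 on wildtype replicates 1 to 4 and 1.64, 1.50, 1.50 and 1.76 on null replicates 1 to 4. The 8 values covered a 1.22-fold range, and null values lay both below and inside the wildtype range. Null hearts averaged 1.60 ± 0.13 and wildtype hearts 1.65 ± 0.11 (SD, n = 4 pools each). The difference was -0.05 (SE 0.11), with a 95% interval from 0.815-fold to 1.14-fold. It did not pass in limma (adjusted p = 0.910), and the exact two-sided permutation test gave p = 0.543. Neither member was thus called, where 0.00% of all 11804 features were called at an adjusted p of 0.05. In the same fit 8.23% had an unadjusted p under 0.05 (2.10% higher and 6.13% lower in null hearts) and 7.54% had groups that did not overlap (2.00% higher and 5.54% lower), and the members were in neither set. Without centring that split was 28 higher and 1364 lower, against 248 and 724 with it.

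The 2 Nppb probes were read from different blocks of the array and gave like levels. Spot 4698 read 1.58, 1.69, 1.79 and 1.62 on the wildtype arrays and 1.62, 1.51, 1.59 and 2.00 on the null arrays. Spot 17782 read 1.60, 1.88, 1.60 and 1.46 on the wildtype arrays and 1.66, 1.48, 1.41 and 1.52 on the null arrays. Their high points differed: null replicate 4 stood highest at the first and wildtype replicate 2 at the second. On single arrays the probes differed by 0.48 on null replicate 4 and by at most 0.19 on the other 7 arrays. Taken alone, spot 4698 gave a difference of 0.0093 (SE 0.13, adjusted p = 0.987 over 16308 probes in limma) and spot 17782 one of -0.12 (SE 0.12, adjusted p = 0.817). The sign of the Nppb difference therefore changed with the probe, and both intervals included 0, from -0.28 to 0.29 and from -0.39 to 0.15.

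**Figure D1:**
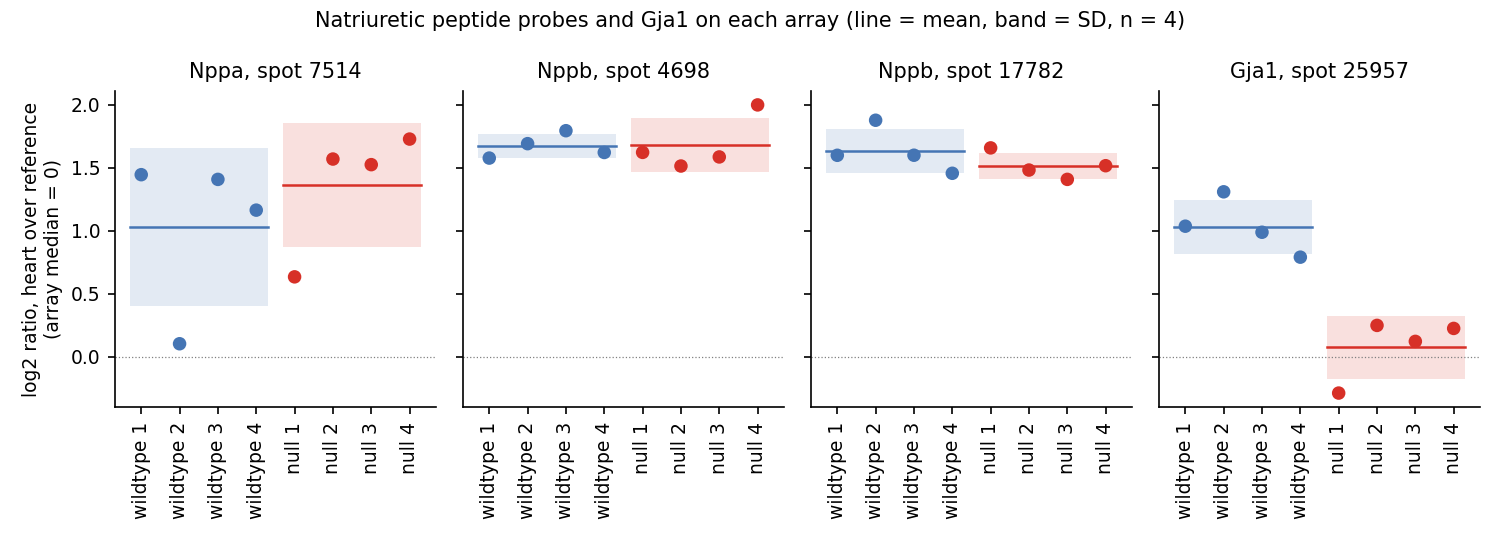
Log2 ratio of heart over reference (vertical axis, array median set to 0) on each of the 8 arrays (horizontal axis; wildtype in blue, null in red) for the Nppa probe, both Nppb probes and the Gja1 probe; lines are group means and bands their SD (n = 4). Nppa read 0.10 on wildtype replicate 2 and 0.63 on null replicate 1, both Nppb probes stayed between 1.41 and 2.00, and Gja1 was lower on all 4 null arrays.

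Whether the genotype difference was unlike for the 2 genes was tested within arrays, where array-wide scaling cancels. The Nppa value minus the Nppb value was -0.14, -1.68, -0.29 and -0.38 on wildtype replicates 1 to 4 and -1.01, 0.07, 0.03 and -0.03 on null replicates 1 to 4. Again wildtype replicate 2 and null replicate 1 stood lowest, and the groups overlapped. The mean was -0.23 ± 0.52 over null and -0.62 ± 0.71 over wildtype pools (SD, n = 4 pools each). Null minus wildtype was 0.39, and the exact two-sided permutation test gave p = 0.457, and 0.0286 is the lowest p that 70 ways of assigning the pools can give. A different response of the 2 genes was therefore not shown. Without wildtype replicate 2 this value was 0.03, and without null replicate 1 it was 0.65 (exact permutation p = 0.0857).

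The readings of the 2 genes differed in their spread between pools of 1 genotype. Nppa read 0.10 on wildtype replicate 2, against 1.16 to 1.45 on the other wildtype arrays. On null replicate 1 it read 0.63, against 1.53 to 1.73 on the other null arrays. With 1 spot for Nppa, variation of the pools and of the spot cannot be told apart. The within-genotype SD of Nppa was 0.57, larger than that of 99.1% of the 8238 features with values on all arrays, whose median SD was 0.18. That of Nppb was 0.12, at percentile 15.6. Among the 55 features with a mean log2 ratio within 0.25 of that of Nppa, Nppa had the largest SD. The average over 2 probes lowers the SD of Nppb, but single probes showed the same order: SDs were 0.17 for spot 4698 and 0.15 for spot 17782, at percentiles 37.5 and 25.3 of the 10320 probes with values on all arrays, and 114 of these probes had a larger SD than that of Nppa. The lowest and the highest Nppa values, on wildtype replicate 2 and null replicate 4, differed 3.09-fold.

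**Figure D2:**
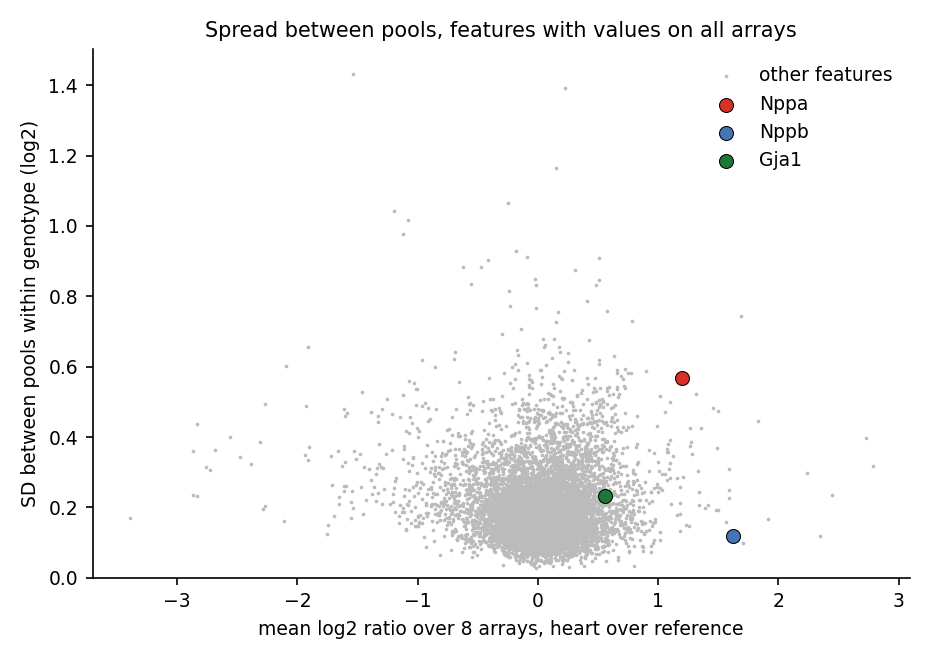
SD between pools within genotype (vertical axis, log2) against the mean log2 ratio of heart over reference (horizontal axis) for 8238 features with values on all 8 arrays, each a grey point. Nppa lies at an SD of 0.57 and Nppb at 0.12, both far to the right among features with a high ratio over the reference, and Gja1 lies at 0.23.

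No relation between the 2 genes was shown across the 8 pools. Pearson's r between Nppa and the Nppb average was -0.44 (exact permutation p = 0.284, adjusted 0.568 over 4 relations) and Spearman's rho was -0.36 (exact permutation p = 0.389, adjusted 0.519). Without the 2 arrays farthest from the Nppa median, wildtype replicate 2 and null replicate 1, r was 0.37. The Nppb probes disagreed: with Nppa, spot 4698 had r = 0.16 and rho = -0.17 (exact permutation p = 0.712 and 0.703, adjusted 0.756 and 0.703), and spot 17782 had r = -0.84 and rho = -0.62 (exact permutation p = 0.0145 and 0.115, adjusted 0.0579 and 0.460). The r of spot 17782 rested on those 2 arrays, since it was 0.03 without them, while that of spot 4698 was 0.43. Between the 2 Nppb probes r was 0.11 and rho 0.45 (exact permutation p = 0.756 and 0.267, adjusted 0.756 and 0.519), and r was 0.72 without wildtype replicate 3 and null replicate 4.

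The other genes of the natriuretic peptide system were read from a list of 62 genes arranged by role, of which 39 had a singly named probe and 29 had enough values to be tested. None of the 29 passed an adjusted p of 0.05 in limma, 2 had an unadjusted p under 0.05, both with lower values in null hearts, where 8.23% of all features had such a p and 6.13% were lower. The smallest adjusted p was 0.594. Values were higher in null hearts for 15 and lower for 14, with a median difference of 0.01 against -0.04 for all features, of which 40.9% were higher. Without centring the split was 5 higher and 24 lower, with a median of -0.15 against -0.18 for all features, and the 10 genes that turned were Csrp3, Fhl1, Furin, Gata4, Gata6, Ide, Mme, Nfatc4, Rcan1 and Rest. Groups overlapped for each of the 29 genes.

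Of the receptors, Npr3, the clearance receptor, was measured. It read 1.28, 1.39 and 0.95 on wildtype replicates 2 to 4, with no value on replicate 1, and 0.51, 1.30, 1.23 and 1.32 on null replicates 1 to 4. Null replicate 1 was the lowest null array, as it was for Nppa. The difference was -0.12 (SE 0.21, adjusted p = 0.891 in limma), with 3 wildtype arrays in the fit, and turned to 0.07 without null replicate 1. Among the proteases on the path from precursor to hormone, Furin, a convertase that can cleave the B-type precursor, had 0.02 (SE 0.14), and Pcsk6, which activates the atrial peptide's converting enzyme corin, had -0.29 (SE 0.17, adjusted p = 0.644). Of the enzymes that degrade the peptides, Mme, which encodes neprilysin, had 0.08 (SE 0.13) and Ide, the insulin-degrading enzyme, 0.05 (SE 0.27). Phosphodiesterases end the cyclic GMP signal or respond to it. Pde1a had -0.19 (SE 0.14), Pde2a, which cyclic GMP stimulates, -0.11 (SE 0.12), and Pde3a, which cyclic GMP inhibits, 0.23 (SE 0.16). Pde3a ran opposite to Nppb over the 8 arrays, with r = -0.87, and read lowest, 0.17, on null replicate 4, where Nppb read 1.76.

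Of 19 transcription factors known to act on these promoters 9 were tested, 6 with higher and 3 with lower values in null hearts, a median difference of 0.07. Over all features 40.9% were higher and the median was -0.04. The direction depended on centring, since Gata4, Gata6, Nfatc4 and Rest turned lower without it. Gata4 and Gata6, whose motif GATAA occurs in both promoters, had 0.08 (SE 0.21) and 0.07 (SE 0.14). Tbx5, a T-box activator of Nppa, had 0.18 (SE 0.13) with 3 wildtype arrays in the fit, and Hand2, a helix-loop-helix factor of the ventricle, -0.15 (SE 0.14). Rest, a repressor of fetal cardiac genes, had 0.06 (SE 0.14), Yy1 -0.08 (SE 0.14), Nfatc4, which calcineurin activates, 0.08 (SE 0.13) and Mef2c -0.04 (SE 0.10). Mef2a, a MADS-box activator, read 0.85, -0.28, 0.83 and 1.07 on wildtype replicates 1 to 4 and 1.03, 0.96, 0.85 and 0.96 on null replicates 1 to 4. Its 1 low array was wildtype replicate 2, the array with the lowest Nppa. Its difference was 0.33 (SE 0.24, adjusted p = 0.719 in limma), and 0.03 without that array.

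The wall stress and fetal programme list holds genes that change in loaded ventricles or that mark fetal and atrial muscle. It had 10 tested members of 23, 4 with higher and 6 with lower values in null hearts. Since Atp2a2 falls with load, and Myl4, Myl7 and Sln are also atrial markers, these counts are not a measure of load. Hspb7, a small heat shock protein of heart muscle, had the largest difference, 0.35 (SE 0.18, adjusted p = 0.614). Csrp3, a muscle LIM protein of the Z-disc, had 0.14 (SE 0.12) and Rcan1, an inhibitor that calcineurin signalling induces, 0.12 (SE 0.11). Without centring Csrp3 and Rcan1 read -0.02 and -0.04. Fhl1, a LIM protein linked to stretch sensing, had 0.01 (SE 0.13), and Agt, the angiotensin precursor, -0.04 (SE 0.13). Atp2a2, the calcium pump of the sarcoplasmic reticulum, which falls in loaded ventricles, had -0.24 (SE 0.11, unadjusted p = 0.0447, adjusted p = 0.594 in limma). Its 3 probes read -0.35, -0.34 and -0.03, and its groups overlapped at their edge, where wildtype replicate 3 read 0.205 and null replicate 3 read 0.214. Ddit4l, an inhibitor of mTOR signalling, had -0.24 (SE 0.11, unadjusted p = 0.0488, adjusted p = 0.594).

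**Figure D3:**
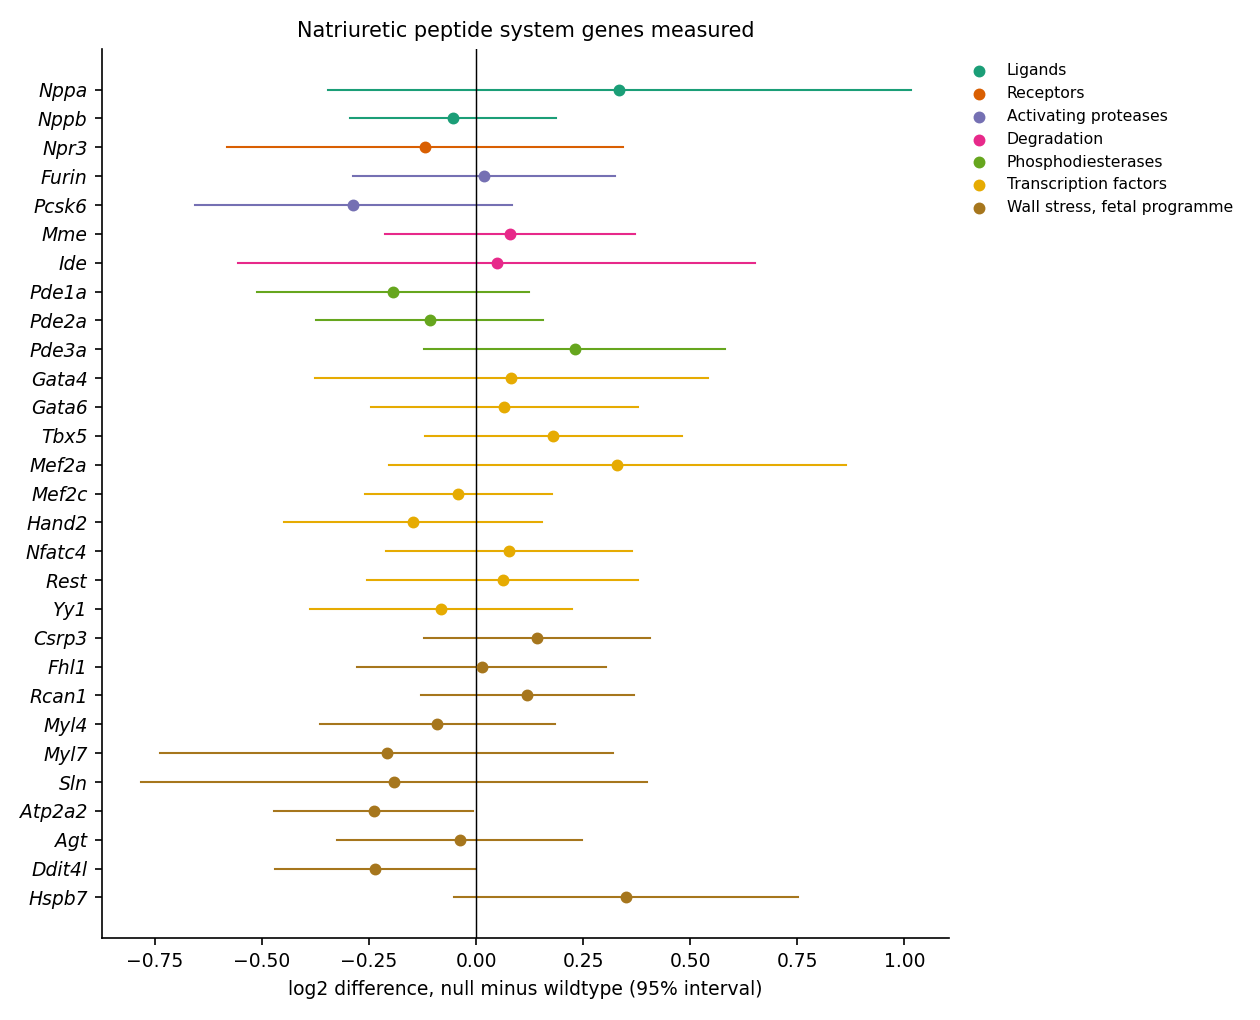
Log2 difference null minus wildtype (horizontal axis) with its 95% interval for the 29 tested genes of the natriuretic peptide system (vertical axis), coloured by role. The interval of Nppa, from -0.35 to 1.01, is the widest, that of Nppb runs from -0.30 to 0.19, and only those of Atp2a2 and Ddit4l end below 0.

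Atrial muscle markers were read beside Nppa, since atria are its main source after birth. In pooled hearts, fewer atrial cells and less RNA per cell cannot be told apart. Of 11 atrial markers 7 were tested, 2 with higher and 5 with lower values in null hearts (median -0.09), and 0 passed. The mean level of the 7 ranged from 0.11 to 0.54 on wildtype and from 0.04 to 0.64 on null arrays, lowest on null replicate 1. On that array, where Nppa read 0.63, the atrial light chain genes Myl7 and Myl4 read 0.75 and 0.28 and Sln, an atrial inhibitor of the calcium pump, read -0.27. These 3 and Dkk3 were at their lowest of 8 arrays there. Dkk3 is named after its values were seen. Stard10 was second lowest there, at -1.89, while Cav1 at 0.89 and Nr2f2 at 0.52 were not low. On wildtype replicate 2, where Nppa read 0.10, atrial markers were not low: Myl7 was at its highest of 8 arrays, 1.91, Sln read 0.81 and Myl4 0.50, and Cav1, at 0.38, was the only 1 of the 7 at its lowest. Over the 8 arrays Nppa had r = 0.53 with Cav1, 0.51 with Dkk3, 0.49 with Myl4, 0.40 with Sln, 0.09 with Stard10, -0.05 with Myl7 and -0.35 with Nr2f2, given as descriptions. The part of atrial content in the Nppa spread was not tested.

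**Figure D4:**
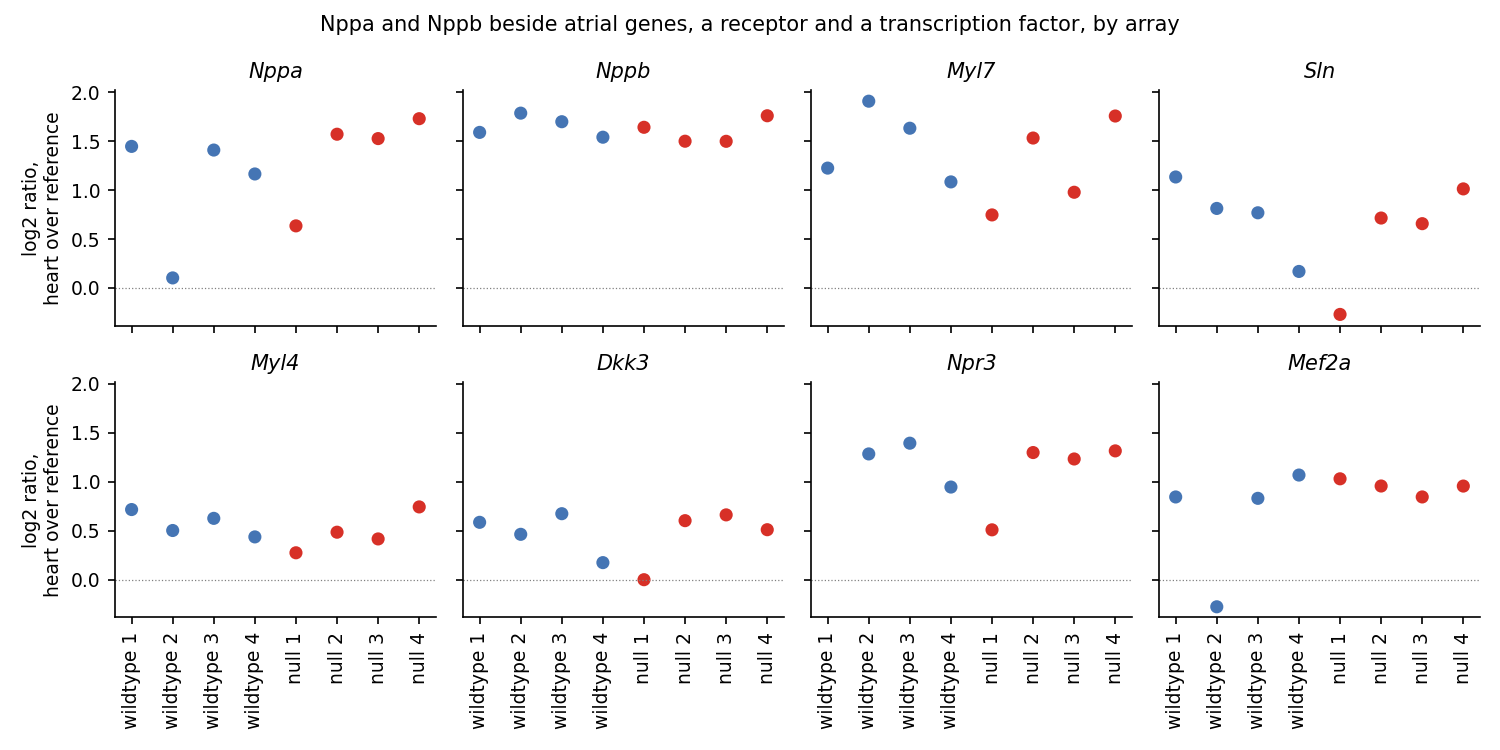
Log2 ratio of heart over reference (vertical axis) on each array (horizontal axis; wildtype in blue, null in red) for Nppa, Nppb, the atrial genes Myl7, Sln, Myl4 and Dkk3, the receptor gene Npr3 and the transcription factor gene Mef2a. Null replicate 1 is low for Nppa, Myl7, Sln, Myl4, Dkk3 and Npr3, whereas wildtype replicate 2 is low for Nppa and Mef2a but highest for Myl7. Npr3 has no value on wildtype replicate 1. The tested atrial markers Cav1, Nr2f2 and Stard10 are not shown. Cav1 and Nr2f2 were not low on null replicate 1, at 0.89 and 0.52, while Stard10 was second lowest there. Cav1 was at its lowest, 0.38, on wildtype replicate 2.

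The genes whose pattern over the 8 arrays was most like that of Nppa were sought among 5676 other named genes with values on all arrays, by Pearson's r of centred values, as a description without a test. The 5 highest were Ireb2, an iron-responsive RNA-binding protein (0.90), Anapc2, a subunit of the anaphase-promoting complex (0.87), Mfge8, a secreted glycoprotein (0.87), Echdc2 (0.86) and Tram2 (0.86), and the 5 lowest Zcchc2 (-0.98), the neurofilament gene Nefm (-0.92), Fam104a (-0.92), the DNA polymerase delta subunit gene Pold2 (-0.89) and Gucd1 (-0.88). None is a cardiac marker of the lists used here. Their own spread was smaller than that of Nppa: Ireb2, which ran from 0.01 on wildtype replicate 2 to 0.46 on null replicate 3, had a within-genotype SD of 0.15. Within the natriuretic peptide system list, Mef2a ranked highest, at 35 with r = 0.72, and Furin next, at 64 with r = 0.67. Endothelial markers ranked near them, Emcn at 54 with r = 0.69 and Tek at 82 with r = 0.65. Emcn and Tek are named after their values were seen. For Nppb the 5 highest were Arhgap45 (0.96), the cell cycle factor gene E2f2 (0.96), the alcohol dehydrogenase gene Adh1 (0.92), Zbtb18 (0.90) and Agxt2 (0.90), and the 5 lowest the metal transporter gene Slc11a2 (-0.95), the procollagen protease gene Bmp1 (-0.91), Hnrnpl (-0.89), the ion channel gene P2rx3 (-0.88) and Pde3a (-0.87). The liver marker Apoa1 ranked 16 for Nppb, with r = 0.87. Since Nppb itself covered only 0.29 on the log2 scale, its likeness rests on small differences.

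Of the arrays as a whole, 12971 to 23929 spots had a value, fewest on wildtype replicate 1, whose median rank correlation with the others was 0.576 against at least 0.663 elsewhere. Gja1, read by 1 probe that may lie outside the deletion, read 0.79 to 1.31 on wildtype arrays and -0.29 to 0.25 on null arrays, with no overlap. Its difference was -0.95 (SE 0.15), with an exact permutation p of 0.0286 and an adjusted p of 0.340 in limma, above the threshold. Sarcomere genes, 5 of which had values, had array medians of 0.41 to 0.95, and 6 genes of other adult tissues -2.48 to -1.03, so that heart was taken as the numerator. Tnnt2, a defining heart muscle gene, had values on 3 arrays only. Markers of other cells overlapped between genotypes in mean level for ventricular and all cardiac muscle, fibroblasts, endothelium, smooth muscle, epicardium, erythroid cells, macrophages and liver. Within these lists, erythroid markers had higher values in null hearts for 6 of 6 (median 0.21) and fibroblast markers for 5 of 5 (median 0.12). Of all features 40.9% were higher. Of single markers, the fetal liver gene Afp was higher without overlap (0.32, adjusted p = 0.553 in limma), and -0.02 with quantile normalization. The other tested liver markers had lower values in null hearts: Alb -0.25, Apoa1 -0.33 and Ttr -0.08. Pln, an inhibitor of the calcium pump, was lower without overlap (-0.19, adjusted p = 0.620 in limma). The other tested ventricular markers, Fhl2 and Lbh, had -0.10 and 0.14. The Z-disc gene Ldb3 had 0.51 (unadjusted p = 0.0219, adjusted p = 0.564 in limma). The other tested markers of all cardiac muscle, Ttn, Tpm1 and Tnnc1, had 0.12, 0.01 and -0.0015. Lung markers did not overlap: 3 of 3 tested had lower values in null hearts, with levels of -2.48 to -1.85 on wildtype and -3.18 to -2.82 on null arrays. Over all features, 7.54% had groups that did not overlap (2.00% higher and 5.54% lower in null hearts). The part of lung, erythroid and fibroblast content in the Nppa and Nppb values was not tested. No marker of the conduction system had enough values, and no thymus marker had a singly named probe.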

How the data were processed

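Two-colour arrays had been hybridised with pooled heart cDNA in Cy3 and the adult tissue reference in Cy5, per the labels. The deposited values are log2 ratios of the 2 dyes per spot; the base was taken from the values, since gaps between spots fell on logs of simple whole-number ratios 8347 times when read in base 2, 269 times in base e and 863 times in base 10, among 31304432 pairs within print blocks and to a tolerance of 1.5e-09. The sources used here name no scanner, background correction, spot filter, scaling or numerator. No dyes were swapped: a dye bias remains in levels, and only the part of it that is the same on all arrays drops out between genotypes. A bias that varied between arrays was not tested.

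Each array was centred on its median. Of 28704 probes 18511 had 1 symbol, 937 had several and 9256 are unnamed here. Probes of 1 symbol were combined through a model with probe and array effects, and features needed values on at least 3 arrays of each genotype, which left 11804. Null minus wildtype was fitted with limma 3.58.1 (lmFit, eBayes without trend) in R 4.3.3, and p-values were adjusted over the 11804 features (Benjamini-Hochberg); single values were also tested by exact two-sided permutation. Scripts were tested on simulated data. Other values were computed with Python 3.11.15, numpy 2.4.6 and pandas 2.3.3, and plots with matplotlib 3.10.9.

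Named genes were the members, Gja1, tested members of the natriuretic peptide system list, the 5 most and least correlated genes per member, and up to 4 genes per marker list by p-value. Outside this rule, Dkk3, Emcn and Tek were named after their values were seen. Members and lists were chosen with earlier results of these data known. The number of arrays limits the precision.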

Additional observations from a re-analysis of the deposited data

Results flagged for a closer look

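In 175 groups of 4 arrays, from 93 genes of the lists, members and genes most like or unlike them, 10 held an array set apart from the other 3 by most of the range of the group. Chance gives about 1 in 20 for a single group. That rate does not hold for this set, which includes genes picked by their correlation with a member on the same arrays. Echdc2 and Zcchc2 were picked in this way for Nppa, so that they are not separate findings. On null replicate 1, Npr3 read 0.51 and Msln 0.34, each below the other null arrays, and so did Echdc2 with -0.33, while Ttn read 0.63 and Zcchc2 0.0866, each above them. Cav1 read 0.72 on null replicate 3, below the other null arrays. Among wildtype arrays, Mef2c read -0.13 and Col1a2 0.47 on replicate 1, and Hand2 read 0.19 on replicate 2, each below the others. Lyz2 read -1.35 on wildtype replicate 2, above the others. Nppa and Nppb were not among the 10.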

How the results depend on the processing

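Nppa kept a higher mean in null hearts under 13 alternative settings (0.18 to 0.78) and with each array left out in turn (0.03 to 0.58), with adjusted p between 0.370 and 0.980. Several of these settings could not move its value of 0.33, since Nppa has 1 probe with values on all 8 arrays. They were the choices on missing values and probes, the robust fit and the replicate block, and they add no support. Nppb stayed below wildtype in 20 of 22 alternatives, from -0.21 without centring to -0.0098 without wildtype replicate 2. The choices on missing values, the plain mean of probes, the robust fit and the replicate block likewise could not move its value of -0.05. The Nppb difference turned to 0.0093 on spot 4698 alone. The setting by fewest missing values returned this same probe, since both probes were complete and the first was taken. No alternative called Nppb. The correlation of Nppa with Nppb turned positive without centring (0.0487) and on spot 4698 (0.16), and ran from -0.77 to 0.0292 (without wildtype replicate 2) with arrays left out; the cause was not tested. The number of features called was 0 throughout, as was that of the list. The count at an unadjusted p under 0.05, 972, was 614 with values required on all arrays, where fewer features were tested, and 632 without null replicate 2, but 1392 without centring and 1297 with array weights. With the replicate number as a replicate block, Nppa had an adjusted p of 0.861 and Nppb of 0.955, and the count at an unadjusted p under 0.05 was 728. Same-numbered arrays did not deviate together (r from -0.25 to -0.0090). These correlations cannot show whether equal numbers mark a shared litter or day, which the labels do not say. The median difference of the list lay between -0.06 and 0.04 with centring, on either side of 0. For 41 other named genes 844 of 868 alternative values moved by less than the SD between pools and no adjusted p passed, but 71 values of 21 genes changed sign. Without centring, the sign turned for Furin (-0.14), Mme (-0.0799), Ide (-0.11), Gata4 (-0.076), Gata6 (-0.092), Nfatc4 (-0.082), Rest (-0.096), Csrp3 (-0.016), Fhl1 (-0.15), Rcan1 (-0.039) and Lbh (-0.014). With array weights, the sign turned for Npr3 (0.019), Mme (-0.031), Nfatc4 (-0.017), Rest (-0.0297), Yy1 (0.039), Myl4 (0.017), Sln (0.072) and Dkk3 (0.088). With equal spread, the sign turned for Gata6 (-0.00603) and Rest (-0.0296). With centring within blocks, the sign turned for Furin (-0.044) and Fhl1 (-0.048). With quantile normalization, the sign turned for Gata6 (-0.00902), Rest (-0.019) and Afp (-0.023). With the replicate block, the sign turned for Npr3 (0.074). With values required on all arrays, the sign turned for Gata4 (-0.12), Gata6 (-0.036) and Dkk3 (0.021). On the probe with the fewest missing values, the sign turned for Gata4 (-0.12), Gata6 (-0.036), Myl4 (0.055) and Dkk3 (0.021). On 1 of its probes alone it turned for Gata4 (-0.12), Gata6 (-0.036), Mef2c (0.0075), Rest (-0.0061), Yy1 (0.19), Fhl1 (-0.029), Myl4 (0.055), Dkk3 (0.021) and Cav1 (-0.064). With arrays left out in turn it turned for Npr3 (-0.19 to 0.074), Furin (-0.074 to 0.089), Mme (-0.013 to 0.17), Ide (-0.21 to 0.27), Gata4 (-0.21 to 0.18), Gata6 (-0.077 to 0.14), Nfatc4 (-0.011 to 0.16), Rest (-0.051 to 0.15), Yy1 (-0.20 to 0.048), Fhl1 (-0.029 to 0.0398), Sln (-0.38 to 0.074), Agt (-0.13 to 0.054), Dkk3 (-0.10 to 0.10) and Fhl2 (-0.15 to 0.016). The cause of these changes was not tested. Array weights and a robust fit were not applied to the value within arrays, and no block was applied to correlations. The ratio direction held on every array under each scaling tried.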

Other observations

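Some genes of the natriuretic peptide system had probes but too few values for a test, and are given here as values. Xirp1, an actin-binding protein of the intercalated disc that loaded heart muscle induces, had 3 probes with 2 wildtype arrays measured each. One read 0.84 to 1.82 and another 1.31 to 1.63, each with 4 null arrays, while the third read -0.26 to -0.22 with no null array. Tbx20, a T-box factor of the heart, read -0.20 to 0.97 over 2 wildtype and 4 null arrays. Tbx3, a T-box repressor of Nppa, had 4 probes with 1 or 2 wildtype arrays and at most 1 null array each, between -0.29 and 0.29. Hand1, a factor of the left ventricle, had 2 probes that read -0.09 to 0.40 and -0.72 to -0.06. The angiotensin receptor gene Agtr1a read -0.34 to 0.13 over 2 wildtype and 4 null arrays. Srf and Tead1 had a probe with no value on any array.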
